A study of Mus musculus with 10 samples.

Results

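MHC class I and immunoproteasome genes were compared between colon samples of ERdj5-KO and WT mice, with and without DSS. The 10 genes H2-K1, H2-D1, B2m, Tap1, Tap2, Tapbp, Psmb8, Psmb9, Psmb10 and Nlrc5 were chosen by name from the 29320 genes of the count table, and all 10 were among the 20472 genes with enough counts to be tested. RNA of whole colon tissue was sequenced from 8-week-old female mice on Day 5. DSS-treated ERdj5-KO mice (3 libraries) and DSS-treated WT mice (3 libraries) had drunk 2% dextran sulfate sodium, which damages the epithelial lining of the colon, for 5 days, and untreated ERdj5-KO mice (2 libraries) and untreated WT mice (2 libraries) had not. ERdj5-KO mice lack ERdj5, a disulfide reductase of the endoplasmic reticulum encoded by Dnajc10. By the study's methods the WT mice were C57BL/6 mice from a commercial supplier and the KO line came from a resource centre, and no source used here gives the genetic background of the KO line. The libraries are named by group and by the number that the count table gives them, and since the labels do not say which mouse each came from, p-values measure the spread between libraries, which may be technical.

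MHC class I molecules show peptides from inside the cell to CD8 T cells, and natural killer cells sense their absence. The proteasome cuts proteins into peptides, the TAP transporter carries them into the endoplasmic reticulum, and tapasin holds TAP beside the class I heavy chain and its partner β2-microglobulin until a peptide is bound. Under interferon gamma, cells put the immunoproteasome subunits in place of the constitutive catalytic subunits, and NLRC5 is the transactivator that drives the class I promoters, much as CIITA does for class II. In the gut these genes are expressed by epithelial cells and, at higher levels, by leukocytes.

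Of the 10 genes, 7 lie in the MHC region of chromosome 17 (GRCm38.p6), between the start of Tapbp and the end of H2-D1 (chr17:33919478-35267497). Psmb9, Tap1, Psmb8 and Tap2 stand in a row there, and the RefSeq starts of Tap1 and Psmb9 face away from each other with 225 bases between them. B2m is on chromosome 2, and Psmb10 and Nlrc5 are on chromosome 8. The short stretches that follow were chosen because NLRC5 and the interferons act at class I promoters, and NLRC5 works through a block of class I promoter elements that includes the X2 and Y boxes. RefSeq promoter sequences of GRCm38.p6 (250 bases before to 50 bases after each start) were matched for 8 of the 10 genes, and Tap2 and Nlrc5 were not matched. Capitals mark matches on either strand to GGGATTCC (an NF-kB core) or GAANNGAAA (an interferon response element core) in H2-K1 at chr17:34000429-34000457 on the minus strand and in H2-D1 at chr17:35262924-35262952 on the plus strand.
H2-K1: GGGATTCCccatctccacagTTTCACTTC
H2-D1: GGGATTCCccatctcctcagTTTCACTTC

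The H2-K1 and H2-D1 stretches were alike at 28 of 29 bases. In the next 3 stretches, capitals mark TGACG (the core of the X2 box) and ATTGG (the Y box, CCAAT on the other strand) in H2-K1 at chr17:34000359-34000388 on the minus strand, in H2-D1 at chr17:35262993-35263022 and in B2m at chr2:122147609-122147638, both on the plus strand.
H2-K1: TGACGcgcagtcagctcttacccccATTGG
H2-D1: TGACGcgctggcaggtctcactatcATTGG
B2m: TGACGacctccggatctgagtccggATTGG

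In these 3 genes, 20 bases separated the elements. The B2m stretch was alike with that of H2-K1 at 13 of 30 bases, the marked ones included. Of the 32851 promoter sequences, 31 (0.0944%) held TGACG and ATTGG with 20 bases between them on either strand, and these included H2-K1, H2-D1, B2m and H2-M3. This spacing and the GAANNGAAA and GGGATTCC searches were chosen after the sequences had been read. Tap1 held the letters of both elements in another order and at another distance. There CCAAT came first, next to the Psmb9 start at chr17:34187331-34187360, and TGACG followed at chr17:34187458-34187486. Both are shown on the plus strand, and the labels name only the letters matched.
Tap1, Y box: tttCCAATcagcggctgcgcgcggtgcagg
Tap1, X2 box: cccagagacaggTGACGacagagggtcct

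The last stretch shows another form of the interferon response element core, GAAANNGAA, in B2m at chr2:122147538-122147566 on the plus strand.
B2m: ataagaacatGAAACTGAAaatgggaaag

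CCAAT was found in 6 of the 8 genes and in 37.4% of all promoters, and TGACG in 5 of the 8 and in 20.8% of all. For Tap1 and Psmb9 these matches were the same bases, counted for both genes because their windows overlap. GAAANNGAA was found in B2m alone of the 8 (8.56% of all), GAANNGAAA in H2-K1 and H2-D1 (7.52%), GGGATTCC in the same pair (1.06%), and GGGANTTCC in none (1.68%). The matches are descriptions of letters and no binding was measured.

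Dnajc10 had 25.6, 23.9 and 30.4 CPM in KO libraries under DSS, against 140, 138 and 121 CPM in WT libraries under DSS, where CPM is the count scaled to library size with TMM factors. The untreated KO libraries had 18.4 and 20.03 CPM, against 113 and 132 CPM in the untreated WT libraries. The 5 KO libraries were all lower than the 5 WT libraries, although reads remained in KO colons. Libraries held 49689389 to 72197887 counted reads, and the smallest count of any of the 10 genes in any library was 449. The epithelial markers Epcam, Cdh1 and Krt8 were high in all 10 libraries, as in colon tissue. Libraries of 1 group differed from each other by more than counting noise, and none was counted as a duplicate.

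The 10 genes moved together across the libraries, and their levels were lowest in untreated KO colons and highest in untreated WT colons. In 9 of the 10 genes, the group means ran from untreated KO, the lowest, through DSS-treated KO and DSS-treated WT to untreated WT, the highest, and in Psmb10 the DSS-treated groups changed places. Both untreated KO libraries lay below the other 8 libraries in 8 genes, the exceptions being Tap2 and Tapbp. Among neighbours in this order, DSS-treated KO and untreated KO differed in 8 genes by the quasi-likelihood test of edgeR (Benjamini-Hochberg adjustment across all tested genes), DSS-treated KO and DSS-treated WT in 2, and DSS-treated WT and untreated WT in none. Of all tested genes, 23.1% were called higher and 22.3% lower in the first of these comparisons. In the second 14.9% were called in each direction, and in the third 0.0244% in either direction. Within the DSS-treated KO group, library 1 was the lowest for all 10 genes, and within the DSS-treated WT group library 2 was the lowest for all 10. Pearson's r between a gene's log2 CPM and the mean of the other 9 genes was 0.887 (Tapbp) to 0.993 (Psmb8) over the 10 libraries, which share their 4 groups.

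**Figure D1:**
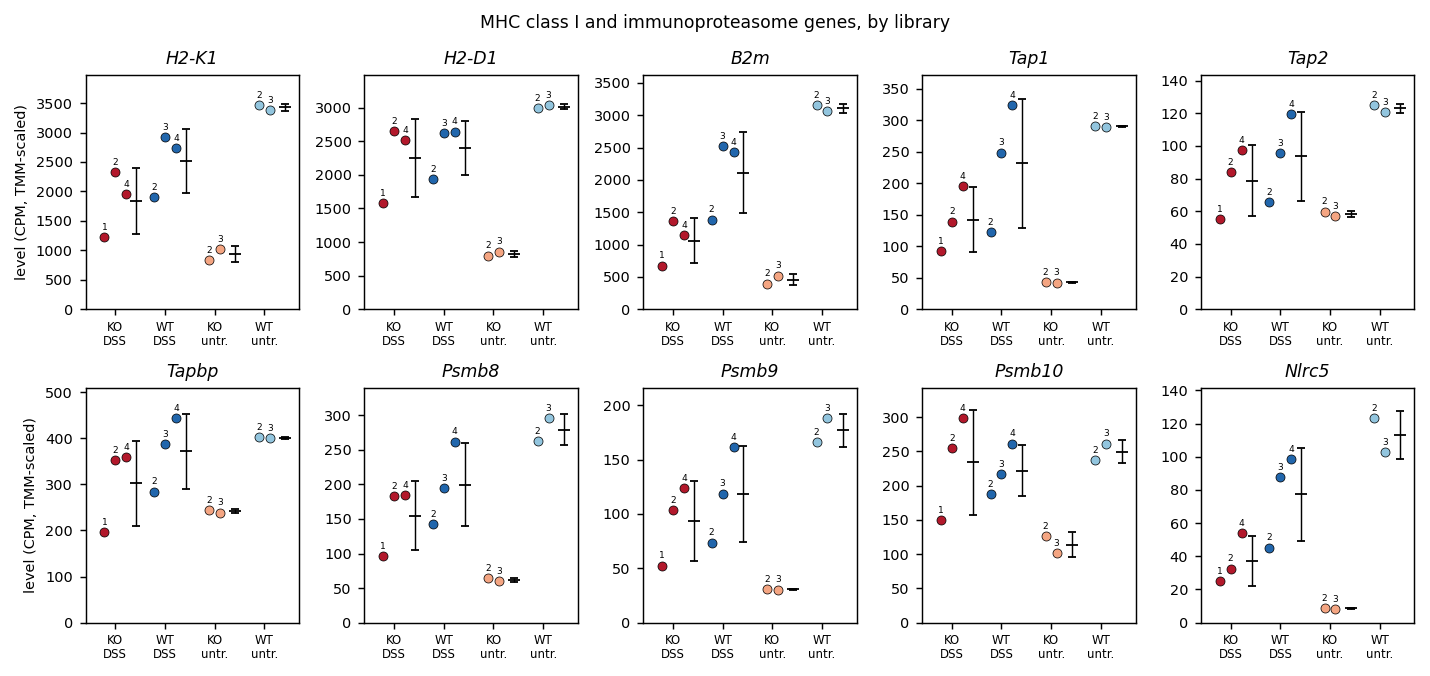
Levels of the 10 genes (CPM, vertical axes from 0) in each library by group, with the library number above each point and the group mean and SD as bars beside the points. The 2 untreated KO libraries are the lowest points in 8 panels, and Nlrc5 stood at 8.88 and 8.11 CPM there against 123 and 103 CPM in untreated WT libraries.

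Markers of other cell types moved with the groups as well. The 14 T and NK cell markers summed to 10.5 to 18.4 CPM in untreated KO libraries, against 175 to 216 CPM in untreated WT libraries, and 13 of the 14 were called lower, with Ncr1 at 0 in both untreated KO libraries. Of 12 macrophage and dendritic cell markers 10 were lower (80.6 to 114 CPM in untreated KO, against 327 to 377 CPM in untreated WT libraries), and of 7 pan-leukocyte markers 5 were lower (60.7 to 135 CPM in untreated KO, against 333 to 588 CPM in untreated WT libraries). The 11 epithelial markers summed to 14715 to 16138 CPM in untreated KO, against 15926 to 16974 CPM in untreated WT libraries, and 1 was called higher and none lower. Of their log2 fold changes 8 were negative and 3 positive. Car1 had 1776 and 1602 CPM in untreated KO, against 263 and 295 CPM in untreated WT libraries. Muc2 had 1624 and 1830 CPM in untreated KO, against 2566 and 2818 CPM in untreated WT libraries. Of 7 smooth muscle markers, 4 were higher in untreated KO (8134 to 9727 CPM, against 2669 to 4205 CPM in untreated WT libraries). Between DSS-treated KO and DSS-treated WT colons, 11 of 14 T and NK cell markers were lower (up to 35.9 CPM in KO, against 55.1 to 100.2 CPM in WT libraries), 3 of 12 macrophage and dendritic cell markers were lower (109 to 206 CPM in KO, against 171 to 337 CPM in WT libraries), 5 of 7 neutrophil markers were higher, and all 7 smooth muscle markers were lower (461 to 807 CPM in KO, against 2349 to 4309 CPM in WT libraries). In DSS-treated KO relative to untreated KO colons, 6 of 7 pan-leukocyte, 6 of 14 T and NK cell and 6 of 7 neutrophil markers were higher. All 7 smooth muscle markers were lower in this comparison (461 to 807 CPM in DSS-treated KO, against 8134 to 9727 CPM in untreated KO libraries, median log2 -3.86). The neutrophil markers S100a8, Cxcr2, Mmp8 and Retnlg stood at 0 in both untreated KO libraries, and Mmp8 and Retnlg also in both untreated WT libraries. The neutrophil marker Ly6g had 350 and 316 CPM in untreated KO, against 167 and 142 CPM in untreated WT libraries. Of the 7 neutrophil markers, 1 was called higher and 1 lower between untreated KO and untreated WT. Of all tested genes, 5.97% were called lower and 3.87% higher between untreated KO and untreated WT, 14.9% in each direction between the DSS-treated groups, and 23.1% higher and 22.3% lower between DSS-treated KO and untreated KO, and the macrophage and dendritic cell count between DSS-treated groups was near that share. Within the DSS-treated KO group the 10 genes and the pan-leukocyte markers did not run together. Library 1, the lowest for all 10 genes, had the highest pan-leukocyte sum (407 CPM). Library 4, the highest for 7 of the genes, had the lowest pan-leukocyte sum (158 CPM). The epithelial markers summed to 10775 CPM in library 1, 15186 CPM in library 2 and 16536 CPM in library 4. The part of these cell types in the results for the 10 genes was not tested, and in bulk tissue fewer cells of a type and less RNA per cell cannot be told apart.

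**Figure D2:**
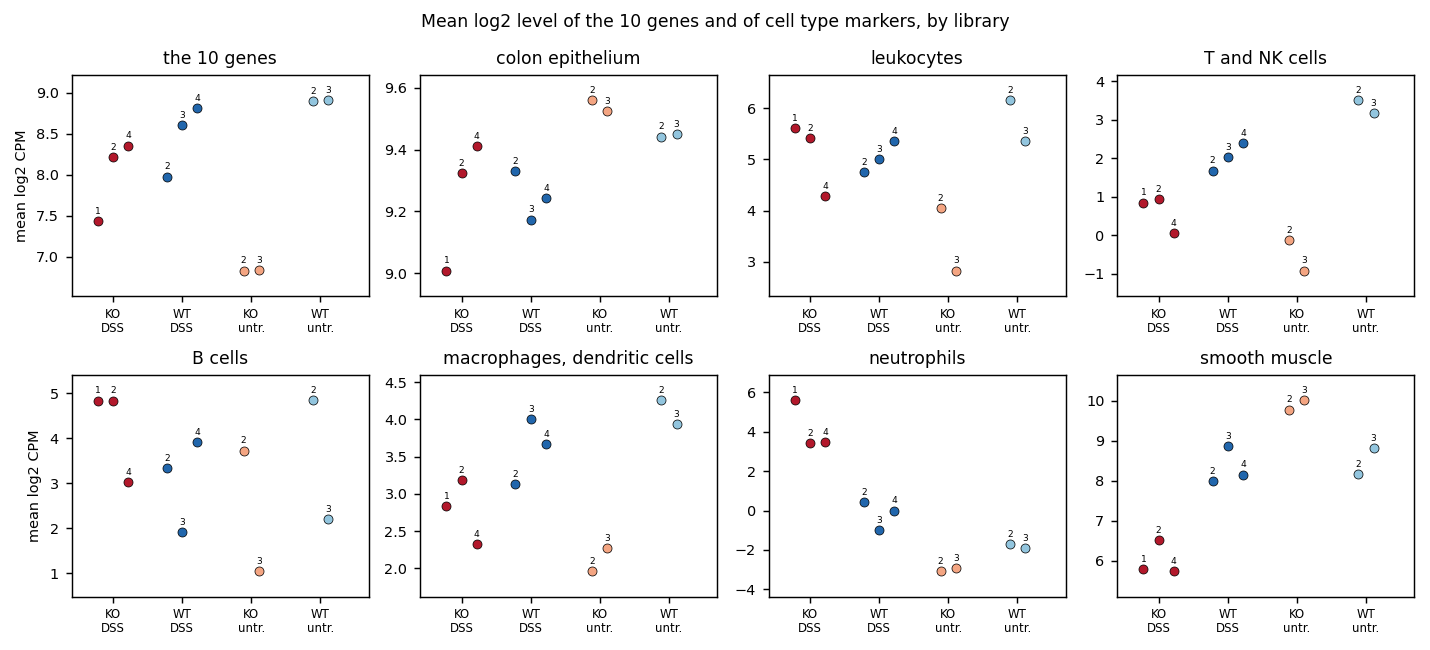
Mean log2 CPM (vertical axes) of the 10 genes and of each marker list in each library by group, with the library number above each point. The T and NK cell markers are lowest in the 2 untreated KO libraries, and the epithelial markers span 9.01 to 9.56 over all 10 libraries.

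The classical heavy chains H2-K1 and H2-D1, which hold the peptide, were among the most abundant of the 10 genes and were both lower in KO than in WT colons without DSS. H2-K1 had 839 and 1027 CPM in the untreated KO libraries, against 3465 and 3386 CPM in the untreated WT libraries. H2-D1 had 797 and 858 CPM in untreated KO, against 2989 and 3038 CPM in untreated WT libraries. The groups did not overlap for either gene, and the log2 fold changes were -1.88 for H2-K1 (SE 0.30, n = 2 libraries per group, edgeR adjusted p = 0.00775) and -1.86 for H2-D1 (SE 0.26, edgeR adjusted p = 0.00442), or 3.67-fold and 3.64-fold lower. The H2-K1 call was lost without untreated KO library 2 (log2 -1.74, edgeR adjusted p = 0.0706) or 3 (log2 -2.03, edgeR adjusted p = 0.0521), where the remaining library is assumed to vary like the other groups. In exact windows of 100 bases, 4.64% of the longest H2-D1 coding transcript and none of the H2-K1 transcript was shared with other genes' GENCODE transcripts, and in windows of 50 bases 14.3% of H2-D1 and 8.79% of H2-K1 was shared, so part of their reads could be split with the genes that share these windows and these levels are uncertain to that extent. No source used here says how the counting treated such reads.

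After DSS the KO heavy chains stood closer to WT. H2-K1 had 1224, 2327 and 1959 CPM in the DSS-treated KO libraries, against 1904, 2917 and 2739 CPM in DSS-treated WT libraries. H2-D1 had 1579, 2654 and 2519 CPM in DSS-treated KO, against 1934, 2618 and 2642 CPM in DSS-treated WT libraries, and the groups overlapped for both genes. The difference of DSS-treated KO and DSS-treated WT was -0.46 on the log2 scale for H2-K1 (SE 0.24, n = 3 libraries per group, edgeR adjusted p = 0.176, 95% interval -0.99 to 0.08) and -0.09 for H2-D1 (SE 0.20, edgeR adjusted p = 0.756, 95% interval -0.54 to 0.36). Relative to untreated KO, DSS-treated KO colons had risen 1.97-fold for H2-K1 (log2 0.98, SE 0.28, edgeR adjusted p = 0.0167) and 2.72-fold for H2-D1 (log2 1.44, SE 0.24, edgeR adjusted p = 0.00120). The H2-K1 rise lost its call without untreated KO library 2 (log2 0.84, edgeR adjusted p = 0.115), untreated KO library 3 (log2 1.13, adjusted p = 0.0542) or DSS-treated KO library 2 (log2 0.77, adjusted p = 0.0505), and in a fit of these groups alone (log2 0.92, adjusted p = 0.0529).

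B2m, which encodes β2-microglobulin, was lower in KO than in WT colons with and without DSS. It had 396 and 522 CPM in the untreated KO libraries, against 3156 and 3059.7 CPM in the untreated WT libraries, a 6.77-fold lower mean (log2 -2.76, SE 0.37, edgeR adjusted p = 0.00424). In DSS-treated KO libraries it had 676, 1363 and 1141 CPM, against 1385, 2526 and 2432 CPM in DSS-treated WT libraries. Every DSS-treated KO library lay below every DSS-treated WT library, and B2m fell by 0.996 on the log2 scale (SE 0.29, edgeR adjusted p = 0.0279). It did not pass without DSS-treated WT library 3 (log2 -0.85, edgeR adjusted p = 0.101), DSS-treated WT library 4 (log2 -0.86, adjusted p = 0.0856) or DSS-treated KO library 1 (log2 -0.77, adjusted p = 0.0526), and in a fit of these groups alone (log2 -0.98, adjusted p = 0.0589). B2m was 2.31-fold higher in DSS-treated KO than in untreated KO colons (log2 1.21, SE 0.33, edgeR adjusted p = 0.0145), a call lost without untreated KO library 2 (log2 1.02, adjusted p = 0.107).

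B2m was low relative to the heavy chains in the KO libraries. The ratio of B2m to H2-K1 CPM was 0.552, 0.586 and 0.583 in DSS-treated KO, against 0.728, 0.866 and 0.888 in DSS-treated WT libraries. It was 0.472 and 0.508 in untreated KO, against 0.911 and 0.904 in untreated WT libraries, so all 5 KO libraries lay below all 5 WT libraries. The ratio of H2-K1 to H2-D1 was 0.775, 0.877 and 0.777 in DSS-treated KO, against 0.984, 1.11 and 1.04 in DSS-treated WT libraries, while untreated KO libraries (1.05 and 1.20) and untreated WT libraries (1.16 and 1.11) overlapped. These ratios are read between libraries and not between genes, they carry no test, and the B2m ratio was chosen after its values had been seen.

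The transporter genes Tap1 and Tap2, whose products form 1 heterodimer, differed in size of change. Tap1 had 43.4 and 42.4 CPM in the untreated KO libraries, against 291 and 289 CPM in the untreated WT libraries, and was 6.77-fold lower (log2 -2.76, SE 0.44, edgeR adjusted p = 0.00753). Tap2 had 59.7 and 57.1 CPM in untreated KO, against 125 and 121 CPM in untreated WT libraries, and was also lower (log2 -1.07, SE 0.29, edgeR adjusted p = 0.0461). The ratio of Tap1 to Tap2 CPM was 0.727 and 0.742 in untreated KO, against 2.33 and 2.39 in untreated WT libraries. The Tap1 call was lost without untreated KO library 2 (log2 -2.78, edgeR adjusted p = 0.0630) or 3 (log2 -2.74, adjusted p = 0.0665), and the Tap2 call without any 1 of 6 libraries, namely the 4 untreated ones, DSS-treated WT library 3 and DSS-treated KO library 2 (log2 -1.11 to -1.04, edgeR adjusted p up to 0.205).

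After DSS, Tap1 had 92.4, 139 and 196 CPM in KO libraries, against 122, 249 and 324 CPM in WT libraries, and Tap2 had 55.2, 83.8 and 97.3 CPM in KO, against 65.5, 95.8 and 119.5 CPM in WT libraries. The DSS-treated groups overlapped for both genes and neither passed the test (Tap1 log2 -0.70, SE 0.34, edgeR adjusted p = 0.142, 95% interval -1.46 to 0.05, and Tap2 log2 -0.25, SE 0.23, edgeR adjusted p = 0.443). Without DSS-treated WT library 2, Tap1 passed (log2 -1.01, edgeR adjusted p = 0.0253). Tap1 was 3.32-fold higher in DSS-treated KO than in untreated KO colons (log2 1.73, SE 0.40, edgeR adjusted p = 0.00667), a call lost without untreated KO library 3 (log2 1.72, adjusted p = 0.0516). Tap2 did not pass there (log2 0.43, SE 0.26, edgeR adjusted p = 0.208).

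Tapbp, the gene of tapasin, moved least of the 10 between untreated groups. It had 245 and 239 CPM in untreated KO libraries, against 402 and 399.7 CPM in untreated WT libraries, which did not overlap, yet its log2 fold change of -0.73 (SE 0.28) did not pass (edgeR adjusted p = 0.134). It passed without DSS-treated KO library 1 (-0.70, edgeR adjusted p = 0.0332) and in a fit of these groups alone (-0.73, edgeR adjusted p = 0.00761). It had 196, 352 and 359 CPM in DSS-treated KO, against 284, 387 and 443 CPM in DSS-treated WT libraries (log2 -0.30, SE 0.23, edgeR adjusted p = 0.350), and the DSS-treated KO libraries lay on both sides of the untreated KO libraries (log2 0.32, SE 0.26, edgeR adjusted p = 0.331). Without DSS-treated KO library 1 the last difference passed (0.52, edgeR adjusted p = 0.0413).

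The immunoproteasome genes Psmb8, Psmb9 and Psmb10, which encode the inducible catalytic subunits, were all lower in KO than in WT colons without DSS. Psmb8 had 63.8 and 60.0 CPM in untreated KO, against 263 and 296 CPM in untreated WT libraries, 4.51-fold lower (log2 -2.17, SE 0.34, edgeR adjusted p = 0.00700). Psmb9 had 30.6 and 30.3 CPM in untreated KO, against 166 and 188 CPM in untreated WT libraries, 5.81-fold lower (log2 -2.54, SE 0.42, edgeR adjusted p = 0.00848). Psmb10 had 126 and 101 CPM in untreated KO, against 238 and 261 CPM in untreated WT libraries, 2.19-fold lower (log2 -1.13, SE 0.29, edgeR adjusted p = 0.0376). Without untreated KO library 2 or 3, Psmb8 (edgeR adjusted p = 0.0583 and 0.0615) and Psmb9 (0.0686 and 0.0703) lost their calls. The Psmb10 call was lost without either of these and also without either WT library of the untreated group, DSS-treated WT library 3 or DSS-treated KO library 2 (log2 -1.30 to -0.98 over all libraries left out in turn, edgeR adjusted p up to 0.210).

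In DSS-treated colons none of the 3 passed between genotypes. Psmb8 had 96.6, 183 and 185 CPM in DSS-treated KO, against 143, 195 and 262 CPM in DSS-treated WT libraries (log2 -0.37, SE 0.26, edgeR adjusted p = 0.315). Psmb9 had 52.5, 103 and 124 CPM in DSS-treated KO, against 73.5, 119 and 162 CPM in DSS-treated WT libraries (log2 -0.34, SE 0.32, edgeR adjusted p = 0.447). Psmb10 had 149.6, 255 and 298 CPM in DSS-treated KO, against 187, 216 and 261 CPM in DSS-treated WT libraries (log2 0.08, SE 0.23, edgeR adjusted p = 0.818), the only 1 of the 10 genes with a positive value here, which was negative without DSS-treated WT library 2 (-0.028) or DSS-treated KO library 4 (-0.13). Relative to untreated KO, DSS-treated KO colons had risen 2.50-fold for Psmb8 (log2 1.32, edgeR adjusted p = 0.00702), 3.06-fold for Psmb9 (log2 1.61, edgeR adjusted p = 0.00756) and 2.06-fold for Psmb10 (log2 1.04, edgeR adjusted p = 0.0107). Each of these rises lost its call without untreated KO library 3 (edgeR adjusted p = 0.0557 for Psmb8, 0.0547 for Psmb9 and 0.0924 for Psmb10).

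The constitutive subunits that the inducible ones replace are encoded by Psmb5, Psmb6 and Psmb7. All 3 were higher in KO than in WT colons under DSS, against 14.9% of all tested genes called higher. Psmb5 had 126, 138 and 137 CPM in DSS-treated KO, against 81.1, 67.4 and 81.3 CPM in DSS-treated WT libraries (log2 0.80, SE 0.11, edgeR adjusted p = 0.00127). Psmb6 and Psmb7 rose by 0.61 and 0.36 on the log2 scale (edgeR adjusted p = 0.00201 and 0.0253), and the Psmb7 call ended without WT library 2 of the DSS group (adjusted p = 0.0639) or library 3 (adjusted p = 0.102). In untreated KO colons only Psmb7 of the 3 passed, with a log2 value of -0.58 (edgeR adjusted p = 0.0212), a call lost without untreated WT library 3 (log2 -0.43, adjusted p = 0.152), untreated KO library 2 (adjusted p = 0.121) or untreated KO library 3 (adjusted p = 0.124).

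The ratio of an inducible subunit to the constitutive one it replaces separated KO from WT libraries for Psmb8 and Psmb5 and less so for the other pairs. Psmb8 to Psmb5 was 0.766, 1.33 and 1.35 in DSS-treated KO, against 1.76, 2.89 and 3.23 in DSS-treated WT libraries. In untreated KO it was 0.919 and 0.853, against 3.41 and 3.22 in untreated WT libraries, so all KO libraries lay below all WT libraries. Psmb9 to Psmb6 was 0.381, 0.766 and 0.924 in DSS-treated KO, against 0.806, 1.48 and 1.71 in DSS-treated WT libraries, with 1 KO library inside the WT range. Psmb10 to Psmb7 was 1.18, 2.19 and 2.58 in DSS-treated KO, against 2.03, 2.53 and 2.59 in DSS-treated WT libraries, which overlapped. These ratios of CPM have no test.

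**Figure D3:**
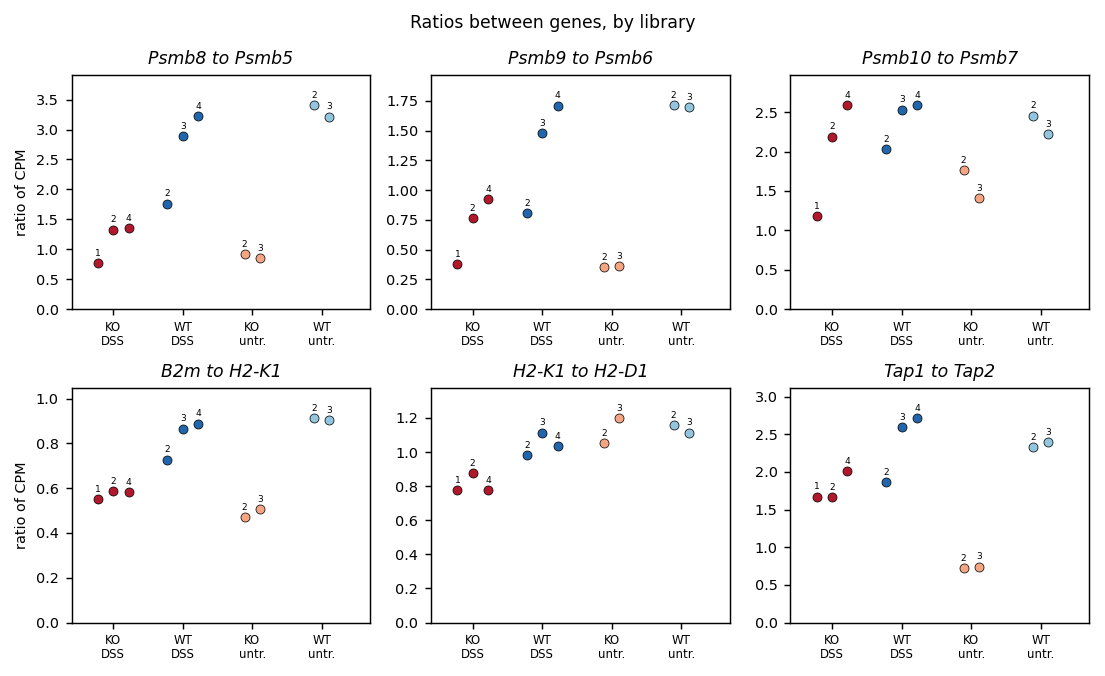
Ratios of CPM between pairs of genes (vertical axes from 0) in each library by group, with the library number above each point. For Psmb8 to Psmb5 and for B2m to H2-K1, the 5 KO libraries lie below the 5 WT libraries, and B2m to H2-K1 spans 0.472 to 0.586 in KO libraries.

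Nlrc5, the transactivator of class I genes, had the largest fold change of the 10 genes between untreated groups. It had 8.88 and 8.11 CPM in the untreated KO libraries, against 123 and 103 CPM in the untreated WT libraries, 13.3-fold lower (log2 -3.73, SE 0.43, edgeR adjusted p = 0.00246). In DSS-treated KO libraries it had 25.1, 32.5 and 53.7 CPM, against 45.2, 87.9 and 98.6 CPM in DSS-treated WT libraries, and it fell by 1.06 on the log2 scale (SE 0.32, edgeR adjusted p = 0.0322) although DSS-treated KO library 4 lay above DSS-treated WT library 2. Nlrc5 did not pass there without DSS-treated WT library 3 (log2 -0.96, edgeR adjusted p = 0.102) or 4 (log2 -0.82, adjusted p = 0.107), DSS-treated KO library 1 (log2 -0.85, adjusted p = 0.0844) or 2 (log2 -0.97, adjusted p = 0.0914), and in a fit of these groups alone (log2 -1.04, adjusted p = 0.0661). Nlrc5 was 4.37-fold higher in DSS-treated KO than in untreated KO colons (log2 2.13, SE 0.39, edgeR adjusted p = 0.00197).

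Between untreated KO and untreated WT colons, 9 of the 10 genes were called lower, where 5.97% of all tested genes were called lower and 3.87% higher. All 10 genes had both KO libraries below both WT libraries, which held for 32.1% of all tested genes. Their median log2 fold change was -2.02, against 0.01 over all tested genes. Calls for H2-D1, B2m and Nlrc5 remained whichever library was left out, and without untreated KO library 2 or 3 these 3 were the only ones left. In the same interval of chromosome 17, 85 other tested genes without an H2- symbol had a median log2 fold change of -0.07, and 9 of them (10.6%) were called lower. The 11 other tested genes of the interval with an H2- symbol had a median of -1.50, and 4 of them (36.4%) were called lower. They were picked by symbol and position alone, and class II genes that are counted again below can be among them.

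Between DSS-treated KO and DSS-treated WT colons, 2 of the 10 genes (B2m and Nlrc5) were called lower, where 14.9% of all tested genes were called lower. B2m alone had no overlap between the groups, which for KO below WT held for 22.4% of all tested genes. The median of the 10 was -0.36, against -0.04 over all tested genes. The count was 0 without WT library 3, WT library 4 or KO library 1 of the DSS groups, and it was 1 without KO library 2. The share of the 10 genes called lower was near that of all genes.

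Between DSS-treated KO and untreated KO colons, 8 of the 10 genes were called higher, where 23.1% of all tested genes were called higher and 22.3% lower. The same 8 had every DSS-treated library above both untreated libraries, which held for 31.6% of all tested genes. Their median log2 fold change was 1.26, against 0.02 over all tested genes, and without untreated KO library 3 only 3 were called (H2-D1, B2m and Nlrc5).

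Between DSS-treated WT and untreated WT colons, none of the 10 passed edgeR's test, none had an unadjusted p under 0.05, and none passed in DESeq2. Only 0.0244% of all tested genes (5) were called in either direction. All 10 values were negative, from -0.58 (Psmb9) to -0.11 (Tapbp, 0.051 without DSS-treated WT library 2), and in 7 genes every DSS-treated WT library lay below both untreated WT libraries, which held for 13.2% of all tested genes. The 95% interval was -1.04 to 0.15 for H2-K1 and -1.32 to 0.23 for Nlrc5.

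The responses to DSS differed between genotypes for 8 of the 10 genes, all with a response that was higher in KO, where 13.8% of all tested genes were called higher and 13% lower in this interaction. The difference of the log2 responses was 2.67 for Nlrc5 (SE 0.51, edgeR adjusted p = 0.00585), 2.20 for Psmb9 (SE 0.52, edgeR adjusted p = 0.0138) and 2.06 for Tap1 (SE 0.54, edgeR adjusted p = 0.0209). Tap2 (0.82, SE 0.37, edgeR adjusted p = 0.127, and 0.99 with adjusted p = 0.0421 without DSS-treated KO library 1) and Tapbp (0.43, SE 0.36, edgeR adjusted p = 0.406) did not pass. Both untreated groups enter this difference, so it shares libraries with the comparisons above. Without 1 of the untreated libraries, 2 to 4 of the 10 genes were called, with 4 without untreated WT library 2, 2 without untreated WT library 3 and 3 without either untreated KO library, and H2-D1 and Nlrc5 kept their calls each time. Tap1 had adjusted p = 0.0584 to 0.0770 in these 4 fits, and Psmb9 had adjusted p = 0.0514 to 0.0564 in the 3 fits in which it was not called.

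**Figure D4:**
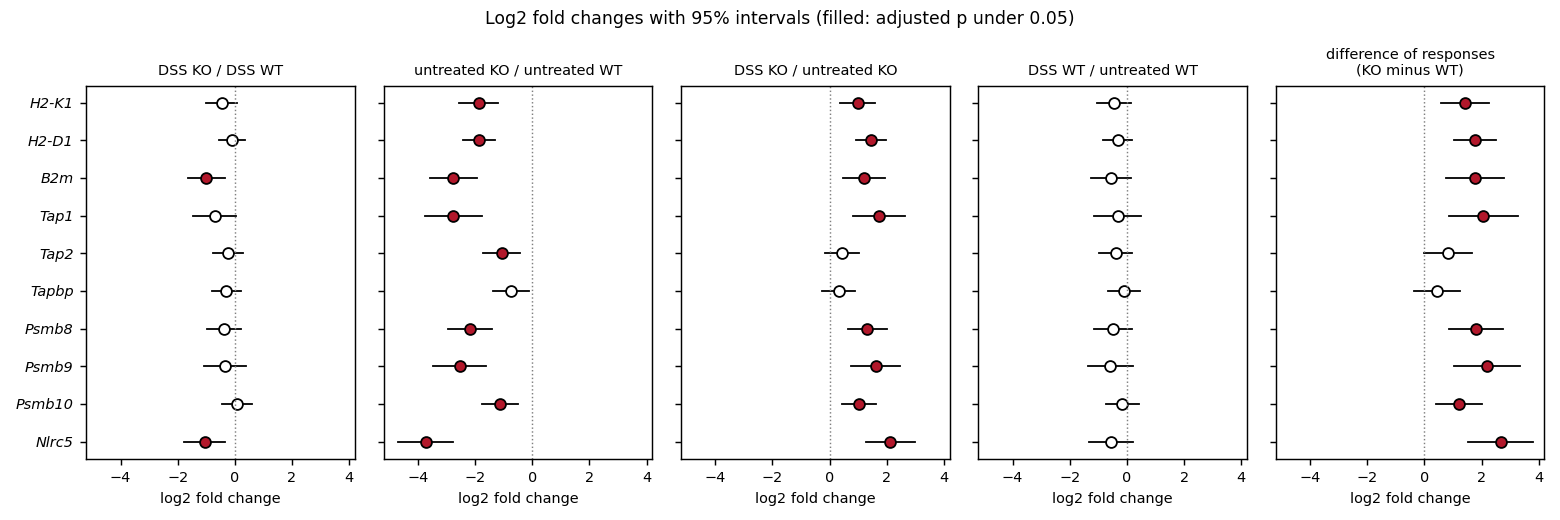
Log2 fold changes (horizontal axes) of the 10 genes in the 5 comparisons, with 95% intervals as lines and filled points where the adjusted p was under 0.05. Points lie left of 0 for all 10 genes between untreated KO and untreated WT, and right of 0 for all 10 between DSS-treated KO and untreated KO, where Nlrc5 reached 2.13.

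Per kilobase of exon (GENCODE vM21, all exons of a gene merged, which includes exons that few transcripts use), B2m was the highest of the 10 genes in every group. Its mean was 534 CPM per kb in untreated KO, against 3614 CPM per kb in untreated WT libraries. H2-K1 and H2-D1 had 318 and 321 CPM per kb in untreated KO, against 1166 and 1169 CPM per kb in untreated WT libraries. Psmb8 (18.3 CPM per kb) stood below Psmb5 (77.7 CPM per kb) in untreated KO libraries, while in untreated WT libraries they had 82.6 and 94.1 CPM per kb. Nlrc5 was the lowest of the 10, with 1.00 CPM per kb in untreated KO, against 13.3 CPM per kb in untreated WT libraries.

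Exons of some of the 10 genes overlap exons of other genes in GENCODE vM21. Tap1 and Psmb9 share 212 bases on opposite strands (3.87% of the merged Tap1 exons and 5.79% of those of Psmb9), and Gm19412 on the other strand covers 24.9% of the Tapbp exons. Gm20496 on the other strand covers 14.7% of the Psmb8 exons, and Gm15821 on the other strand covers 14.1% of the Tap2 exons. The library kit marks strand, but no source used here says whether the counting used it, so reads of these stretches could belong to either gene. H2-K1, H2-D1, B2m and Psmb10 overlap no other gene's exons in that annotation.

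Genes of the proteasome activator and of proteasome assembly were lower in untreated KO colons for 4 of the 9 on the list, and none was higher. Of all tested genes, 5.97% were called lower and 3.87% higher there. Psme1 and Psme2, the interferon-inducible activator subunits, had log2 values of -1.43 and -1.08 (edgeR adjusted p = 0.00774 and 0.0329). Psme1 lost its call without untreated KO library 2 (adjusted p = 0.0592) or 3 (adjusted p = 0.0678), and Psme2 without any 1 of the 4 untreated libraries (adjusted p = 0.109 to 0.162). In DSS-treated KO colons 6 of the 9 were higher than in the matching WT group, and none was lower. Of all tested genes, 14.9% were called in each direction between these groups. The assembly factor Pomp, which is needed to build the proteasome core, had 137, 156 and 176 CPM in DSS-treated KO, against 89.4, 84.7 and 90.2 CPM in DSS-treated WT libraries (log2 0.83, SE 0.11, edgeR adjusted p = 0.00118). Psmg3, another assembly chaperone, had a log2 value of 1.07 (SE 0.11, edgeR adjusted p = 0.000565). The median of the 9 was 0.54 between DSS-treated groups and -0.43 between untreated groups, against -0.04 and 0.01 over all tested genes.

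Of 9 genes for peptide loading and trimming outside the 10, 2 were lower in untreated KO colons and none was higher. Of all tested genes, 5.97% were called lower there. Erap1, the peptidase that trims peptides in the endoplasmic reticulum, had a log2 value of -0.83 (edgeR adjusted p = 0.0178), and Pdia3, the thiol oxidoreductase of the loading complex, one of -0.72 (edgeR adjusted p = 0.0236). Both calls were lost without any 1 of the 4 untreated libraries (adjusted p = 0.0758 to 0.124 for Erap1 and 0.0592 to 0.150 for Pdia3). Under DSS, 3 of the 9 were higher in KO than in WT colons, against 14.9% of all tested genes called higher. They were Hspa5 (log2 0.86, edgeR adjusted p = 0.0140), Calr (log2 0.64, edgeR adjusted p = 0.00747) and Canx (log2 0.58, edgeR adjusted p = 0.00754), chaperones that also fold many other proteins of the endoplasmic reticulum. Hspa5 did not pass without DSS-treated WT library 3 (log2 0.70, adjusted p = 0.0538). Calr had 1182, 1077 and 1192 CPM in DSS-treated KO, against 743, 639.5 and 829 CPM in DSS-treated WT libraries, with no overlap. Hspa5 and Calr were also higher in DSS-treated KO than in untreated KO colons (log2 1.55 and 1.21, edgeR adjusted p = 0.000937 and 0.000329). In that comparison 6 of the 9 were called higher, against 23.1% of all tested genes.

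Of 18 non-classical class I and related genes, 8 were lower in untreated KO colons and none was higher, where 5.97% of all tested genes were called lower. H2-Q7 had 15.3 and 14.8 CPM in untreated KO, against 317 and 311 CPM in untreated WT libraries (log2 -4.38, SE 0.39, edgeR adjusted p = 0.000991). H2-Q10 and H2-Q6 had log2 values of -4.12 and -3.86 (edgeR adjusted p = 0.00276 and 0.00129). They belong to the same family as the heavy chains, and the sequence they share was not measured here, so their levels are uncertain where the counting could split reads between family members. H2-Q7 had 77.1, 142 and 81.7 CPM in DSS-treated KO libraries and was higher there than in untreated KO (log2 2.74, SE 0.35, edgeR adjusted p = 0.000352). Under DSS the KO colons had lower levels of 4 of the 18, among them H2-Q10 (log2 -1.85, edgeR adjusted p = 0.00560) and Mr1, which presents microbial vitamin metabolites to MAIT cells (log2 -1.49, edgeR adjusted p = 0.0105). The share of the 18 called lower was near the 14.9% of all tested genes called lower under DSS. H2-T24, another of the 4 (log2 -1.88, edgeR adjusted p = 0.0173), lost its call when library 3 or 4 of the DSS-treated WT group was left out (adjusted p = 0.0547 and 0.0657). Mr1 was a low gene, with 1.12, 1.12 and 0.631 CPM in DSS-treated KO, against 1.78, 3.65 and 2.71 CPM in DSS-treated WT libraries, and the groups did not overlap. The median of the 18 was -1.11 between untreated groups and -0.60 between DSS-treated groups.

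Of 9 genes for factors of the class I and class II promoters, Rfx5, a subunit of the X box factor, and Ciita, the class II transactivator, were lower in untreated KO colons and none was higher (log2 -0.65 and -1.84, edgeR adjusted p = 0.0118 and 0.0352). Of all tested genes, 5.97% were called lower there. Ciita had 22.9 and 10.3 CPM in untreated KO, against 65.5 and 53.2 CPM in untreated WT libraries, and its call was lost without any 1 of the 4 untreated libraries or without DSS-treated WT library 3 (adjusted p = 0.0532 to 0.194). Rfx5 lost its call without untreated WT library 2 (adjusted p = 0.0881), untreated KO library 2 (adjusted p = 0.0889) or untreated KO library 3 (adjusted p = 0.0707). Between DSS-treated groups Rfxap (log2 0.53, edgeR adjusted p = 0.00803), Nfyb (log2 0.50, edgeR adjusted p = 0.0180) and Atf1 (log2 0.31, edgeR adjusted p = 0.0320) were higher in KO. The share of all tested genes called higher between these groups was 14.9%. Leaving out single libraries ended the Nfyb call in 1 case (DSS-treated WT library 3, adjusted p = 0.0749) and the Atf1 call for 8 of the 10 libraries, all but DSS-treated WT library 4 and DSS-treated KO library 2.

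Of 6 class II genes, 4 were lower in untreated KO colons (H2-Eb1, H2-Ab1, H2-DMb1 and H2-DMa, log2 -1.97 to -1.79), with edgeR adjusted p from 0.0172 to 0.0376. Of all tested genes, edgeR called 5.97% lower there. None of the 6 passed between the DSS-treated groups in edgeR or DESeq2, and none had an unadjusted p under 0.05 in edgeR. Without DSS-treated WT library 2, H2-Aa passed between these groups (log2 -1.15, edgeR adjusted p = 0.0233). Between those groups edgeR called 14.9% of all tested genes in each direction. DESeq2 called all 6 between untreated groups, and between DSS-treated KO and untreated KO it called 5 of the 6, where edgeR called 1. Over the 29320 genes of the count table, DESeq2 called 3415 and 9703 genes in these comparisons. Between DSS-treated KO and untreated KO, edgeR called 23.1% of all tested genes higher. Each of the 4 edgeR calls was lost without any 1 of the untreated libraries (adjusted p = 0.0679 to 0.208). H2-Ab1 had 194 and 163 CPM in untreated KO, against 653 and 644 CPM in untreated WT libraries. Class II genes are expressed mainly by professional antigen-presenting cells, and Ciita drives them as Nlrc5 drives class I.

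Of the interferon gamma axis, Ifng, the ligand made by T and NK cells, was nearly without reads in untreated KO colons. It had 2 and 0 counts in the untreated KO libraries, against 177 and 136 counts in the untreated WT libraries, a ratio of 0.00653 after scaling for depth (exact 95% interval 0.000787 to 0.0238, which covers counting error only). In DSS-treated KO libraries it had 78, 21 and 96 counts, against 39, 88 and 165 counts in DSS-treated WT libraries, and the groups overlapped (log2 -0.28, SE 0.64, edgeR adjusted p = 0.766).

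Socs1, the feedback inhibitor of this pathway, was higher in KO than in WT colons under DSS. It had 23.8, 12.5 and 80.5 CPM in DSS-treated KO, against 6.06, 7.03 and 11.2 CPM in DSS-treated WT libraries, with no overlap (log2 2.26, SE 0.57, edgeR adjusted p = 0.0171), though it did not pass without DSS-treated WT library 2 (log2 2.09, adjusted p = 0.0539) or 3 (log2 2.17, adjusted p = 0.0668). In untreated KO libraries it had 2.23 and 1.99 CPM, against 11.6 and 12.2 CPM in untreated WT libraries, which did not pass (log2 -2.50, SE 0.73, edgeR adjusted p = 0.0600) but passed in DESeq2 (adjusted p = 0.0216). Irf1, an interferon-induced activator of class I genes, did not pass between DSS-treated groups (log2 -0.37, SE 0.27, edgeR adjusted p = 0.328). It had 229 and 179 CPM in untreated KO, against 421 and 393 CPM in untreated WT libraries, which did not overlap and did not pass (SE 0.34 on the log2 scale, edgeR adjusted p = 0.0921) but passed in DESeq2 (log2 -0.99, adjusted p = 0.0231). Without DSS-treated KO library 4, Irf1 (log2 -0.78, adjusted p = 0.0220) passed between the DSS-treated groups.

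Of the type I and type III interferon axis, 12 genes were listed and 9 tested. Between untreated KO and untreated WT colons 3 of the 9 were called lower and none higher, where 5.97% of all tested genes were called lower. Between the DSS-treated groups 2 of the 9 were called lower and none higher, where 14.9% of all tested genes were called lower. Stat2 was lower in KO colons between DSS-treated groups (log2 -1.45, SE 0.28, edgeR adjusted p = 0.00546) and between untreated groups (log2 -2.08, SE 0.35, edgeR adjusted p = 0.00872, lost without untreated KO library 2 at adjusted p = 0.0737). Irf7, the interferon-induced regulator of type I interferon genes, had 48.9, 114 and 86.2 CPM in DSS-treated KO, against 139.6, 328 and 403 CPM in DSS-treated WT libraries, and was lower with no overlap (log2 -1.81, SE 0.42, edgeR adjusted p = 0.0121). Irf7 had 70.8 and 128 CPM in the untreated KO libraries, against 527 and 413 CPM in untreated WT libraries, and was called lower. Irf9 was also called lower there, with 33.5 and 58.1 CPM in untreated KO, against 111 and 97.6 CPM in untreated WT libraries. Leaving out 1 library ended the Irf7 call in 4 of 10 fits and the Irf9 call in 8 of 10. None of the 9 passed between DSS-treated KO and untreated KO colons. In this comparison 23.1% of all tested genes were called higher and 22.3% lower. An unadjusted p under 0.05 was reached there by 1 of the 9, and DESeq2 called none.

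**Figure D5:**
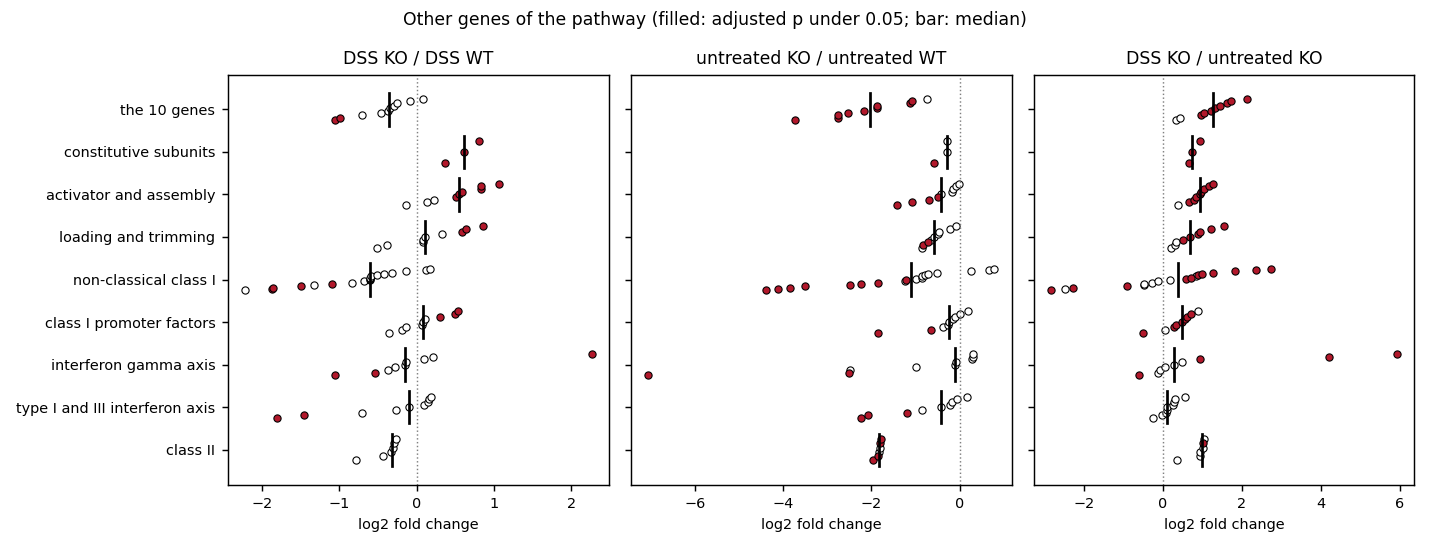
Log2 fold changes (horizontal axes) of the genes of each pathway list in DSS-treated KO against DSS-treated WT, untreated KO against untreated WT, and DSS-treated KO against untreated KO colons, with a point per gene, filled where the adjusted p was under 0.05, and a bar at the list median. The median of the 10 genes lies at -0.36, -2.02 and 1.26 in these comparisons.

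Outside the 10 genes, those whose log2 CPM followed the mean log2 CPM of the 10 genes most closely over the 10 libraries were Il18bp, H2-Q4, Psme1, Ifi47, Epsti1, Ido1, Tlr3, Tgtp1, Zbp1 and Irgm1, with Pearson's r from 0.964 to 0.990. H2-Q4 and Psme1 are also on the lists above. Il18bp, which encodes a secreted inhibitor of interleukin 18, had 17.3, 36.6 and 44.3 CPM in DSS-treated KO, against 29.1, 59.0 and 121 CPM in DSS-treated WT libraries. In untreated KO it had 7.99 and 7.87 CPM, against 103 and 116 CPM in untreated WT libraries. Ido1, a tryptophan-degrading enzyme, had 7.20 and 3.63 CPM in untreated KO, against 189.9 and 285 CPM in untreated WT libraries. The libraries share 4 groups, so a correlation over them mostly follows the group means.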

How the data were processed

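RNA libraries made with a stranded mRNA kit from colon were sequenced, and the submitters' processing notes name build mm10 and, with no role given, StringTie 2.1.3b, HISAT2 2.1.0, Trimmomatic 0.38 and Bowtie2 2.3.4.1. The authors deposited 1 table of raw read counts per gene for 10 libraries, and these counts were used as deposited. Another 30 columns of per-library normalized values were not used, and 8 columns holding the authors' own fold changes and p-values for 2 comparisons were neither used nor compared. Columns were assigned to groups by genotype and treatment in their names, because their numbers could not be matched to the numbers in the titles.

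Genes kept by filterByExpr were fitted in edgeR 4.0.16 (R 4.3.3, limma 3.58.1) over all libraries with a mean per group, TMM factors and the quasi-likelihood test, with Benjamini-Hochberg adjustment over all 20472 tested genes and a threshold of 0.05. The fit was tested on simulated data. Standard errors were taken from the fold change and the F statistic. Totals ran from 49689389 to 72197887 counts, and with 2 or 3 libraries per group their number limits the precision more than depth does. Whether libraries with the same number belong together is not given, so the main fit used no replicate block. Alternatives were RLE factors, DESeq2 1.42.0, no filter, at least 10 counts in every library, the compared groups alone, a replicate block, and leaving out each library.

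All 10 genes were named in every comparison, with up to 4 genes of each list by size of change among those called, all constitutive subunits, the interferon gamma genes a statement needs, and the 10 genes of most alike pattern (mean log2 CPM of at least 1, prior count 1). The genes and lists were chosen with earlier results of these data known. Promoter sequences came from RefSeq (GRCm38.p6) and exons from GENCODE vM21.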

Additional observations from a re-analysis of the deposited data

Results flagged for a closer look

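The response to DSS was higher in KO than in WT colons by the interaction term of edgeR's quasi-likelihood test for 8 of the 10 genes. Of all tested genes, 13.8% were called higher and 13% lower in this interaction. The difference of the log2 responses was 1.42 for H2-K1, 1.77 for H2-D1, 1.76 for B2m, 2.06 for Tap1, 1.80 for Psmb8, 2.20 for Psmb9, 1.21 for Psmb10 and 2.67 for Nlrc5. The untreated groups, with 2 libraries each, enter each of these values, and only H2-D1 and Nlrc5 kept their calls whichever library was left out. Groups of 2 or 3 libraries are too small for a test of outlying samples, so none was run.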

How the results depend on the processing

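RLE factors, DESeq2, no filter and the stricter filter left the calls of the 10 genes as they were in all comparisons. Between DSS-treated KO and DSS-treated WT colons, none of the 10 was called with the replicate block (0) or in a fit of these groups alone (0), against 2, and leaving out 1 library gave 0 to 3. Leaving out 1 library gave 3 to 10 called genes between untreated KO and untreated WT (9 with all libraries), 3 to 9 between DSS-treated KO and untreated KO (8), 0 to 0 between DSS-treated WT and untreated WT (0) and 2 to 9 in the interaction (8). Over the 10 genes, comparisons and alternatives, 713 values kept direction and side of the threshold, 64 lost the call, 7 gained it and 6 changed sign.

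Signs changed only where values lay near 0. Between DSS-treated KO and WT colons, H2-D1 was 0.15 with the replicate block (-0.09 without it), and leaving out 1 library gave -0.23 to 0.10 for H2-D1, -0.13 to 0.31 for Psmb10 and -0.91 to 0.28 for Ifng. Between DSS-treated and untreated WT colons it gave -0.27 to 0.051 for Tapbp. The cause was not tested.

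Deviations from the group means correlated weakly between libraries with the same number (r from -0.02 to 0.11 over 10 pairs, 1 of them over 0.1). Correlations this weak cannot decide whether libraries with the same number belong together, and the labels do not say. With the replicate block, B2m and Nlrc5 between DSS-treated groups had log2 values of -0.65 and -0.89 (edgeR adjusted p = 0.116 and 0.0567), and Tapbp between untreated groups (-0.73, adjusted p = 0.0364) and Tap2 in the interaction (1.01, adjusted p = 0.0307) passed. Of the other genes named, the block ended the calls of Irf7 (log2 -1.36, adjusted p = 0.0761), Psmb7 (0.107), H2-T24 (0.0994), Nfyb (0.116) and Atf1 (0.177) between DSS-treated groups and of Ciita (0.0537) between untreated groups, where Irf1 (0.0210) and Socs1 (0.0157) passed.

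Over all tested genes, the DSS-treated groups gave 3622 calls with the block against 6096 without it, and untreated KO against untreated WT gave 3415 in DESeq2 and 3819 in a fit of those groups alone against 2016. DSS-treated WT against untreated WT gave 169 in DESeq2, 0 with the block and 0 with those groups alone against 5. Leaving out 1 library gave 3237 to 5767, 304 to 2900, 5623 to 9133 (9300 with all libraries), 0 to 9 and 2824 to 5877 (5482) in the comparisons in the order of KO against WT under DSS, KO against WT without it, DSS-treated KO against untreated KO, DSS-treated WT against untreated WT, and the interaction. In fits without 1 untreated library, the lone library of its group is assumed to vary like the other groups. The number of libraries limits these results more than depth, since no count of the 10 genes was under 449.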
